A study of Homo sapiens with 4 samples.

Results

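The genes described here encode the machinery that brings pyruvate into mitochondria and oxidises it: the mitochondrial pyruvate carrier, pyruvate carboxylase, the pyruvate dehydrogenase complex with its kinases and phosphatases, and the enzymes of the tricarboxylic acid (TCA) cycle. They were chosen by name, 32 genes of the 15220 to which the transcripts of the series were assigned, and all 32 were among the 15100 genes with enough counts to be tested. The libraries were 2 of PANC-1, a pancreatic ductal adenocarcinoma cell line, and 2 of PZT-2, a PANC-1 line in which the histone variant H2A.Z had been knocked down, all at passages 12 to 13. PANC-1 was untransduced. PZT-2 is a single clone that carries lentiviral short hairpin RNAs against H2A.Z.1 (H2AFZ) and against H2A.Z.2 (H2AFV), so the knockdown, the transduction and the choice of one clone cannot be told apart in this comparison. The PSCR line, transduced with a scrambled hairpin, was not analysed here.

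Pyruvate, the end product of glycolysis, enters the mitochondrial matrix through a carrier made of MPC1 and MPC2. There the pyruvate dehydrogenase complex turns it into acetyl-CoA in an irreversible step, which the kinases PDK1 to PDK4 switch off by phosphorylating the E1 alpha subunit and the phosphatases PDP1 and PDP2 switch on again. Citrate synthase joins acetyl-CoA to oxaloacetate, and the cycle then regenerates oxaloacetate while it yields NADH, FADH2 and a nucleoside triphosphate. Cycle intermediates also leave the mitochondria for biosynthesis, citrate for fatty acids above all. H2A.Z replaces the histone H2A in nucleosomes, often in those that flank the start of a gene.

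Because H2A.Z occupies nucleosomes at gene starts, the stretches just upstream of 5 of these genes are shown, taken from RefSeq sequence on GRCh38.p14 as the 250 bases before the annotated start. They belong to PDHB and SUCLG2, which were higher in PZT-2 and both lie on chromosome 3, to PDK4, which had the largest increase, and to FH and MDH2, which were lower. Capitals mark matches to the motifs of SP1 (GGGCGG), GABPA (CCGGAAGT) and the E-box (CACGTG) on either strand, and none of the marked matches overlap.
PDHB, chr3:58433833-58434082, minus strand: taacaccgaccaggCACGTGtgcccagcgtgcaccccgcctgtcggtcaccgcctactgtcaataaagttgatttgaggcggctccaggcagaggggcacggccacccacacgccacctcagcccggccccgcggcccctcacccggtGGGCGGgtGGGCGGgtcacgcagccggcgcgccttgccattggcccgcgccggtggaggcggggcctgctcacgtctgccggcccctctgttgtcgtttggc
SUCLG2, chr3:67654613-67654862, minus strand: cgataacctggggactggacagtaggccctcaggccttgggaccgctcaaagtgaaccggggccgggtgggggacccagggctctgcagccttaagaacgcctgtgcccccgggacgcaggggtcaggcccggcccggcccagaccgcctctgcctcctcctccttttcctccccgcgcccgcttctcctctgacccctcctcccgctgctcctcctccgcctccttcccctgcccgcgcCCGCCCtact
PDK4, chr7:95596517-95596766, minus strand: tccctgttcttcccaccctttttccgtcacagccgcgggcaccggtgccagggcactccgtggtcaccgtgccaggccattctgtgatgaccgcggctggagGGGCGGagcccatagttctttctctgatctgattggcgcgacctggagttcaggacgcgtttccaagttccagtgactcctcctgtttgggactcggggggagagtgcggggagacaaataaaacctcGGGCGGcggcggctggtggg
FH, chr1:241519756-241520005, minus strand: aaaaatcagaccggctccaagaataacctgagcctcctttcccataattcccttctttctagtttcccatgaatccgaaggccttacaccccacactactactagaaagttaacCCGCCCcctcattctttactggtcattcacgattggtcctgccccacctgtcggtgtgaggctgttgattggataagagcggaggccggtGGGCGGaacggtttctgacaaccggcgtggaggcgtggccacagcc
MDH2, chr7:76047856-76048105, plus strand: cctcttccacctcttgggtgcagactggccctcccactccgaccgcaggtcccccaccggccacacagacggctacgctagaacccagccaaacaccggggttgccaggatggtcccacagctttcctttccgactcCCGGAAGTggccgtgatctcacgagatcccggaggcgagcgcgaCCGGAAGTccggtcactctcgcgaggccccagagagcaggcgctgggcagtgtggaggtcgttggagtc

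Such a stretch was used for 29 of the 32 genes. None was at hand for OGDH and SDHC, and gene starts on chromosomes 8 and Y, with PDP1 among them, were left out. In most of the 29 the stretch was rich in G and C, with a median of 67.6% (range 48.4 to 77.6%) beside 64.8% for 11331 tested genes. Of the motifs searched on both strands, SP1 was found in 18 of the 29 (62.1%, against 66.1% of the tested genes), NRF1 (GCGCA and GCGC with any base between them) in 6 (20.7% against 10.0%) and GABPA in 4 (13.8% against 6.82%). NRF1 and GABPA are factors known for the control of nuclear genes of mitochondrial proteins. The E-box was found in 2 of the 29 (6.90% against 8.89%), PDHB and PDP2, and neither the ESRRA motif (TCAAGGTCA, in 0.159% of the tested genes) nor the SRE (TCACNCCAC, in 0.847%) was found in any. Among 9 genes called lower, which leave out OGDH, NRF1 was matched in 3, MPC2, SDHA and IDH3G. It was matched in 0 of the 4 called higher and in 3 of 16 not called. These matches describe letters in a window and are no evidence of binding.

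The libraries held between 12861486 and 15717578 estimated counts. H2AFZ was lower in both PZT-2 libraries by a log2 fold change of -1.47 (standard error, SE, 0.0565; adjusted p = 6.26e-05) and H2AFV by -0.36 (SE 0.0569, adjusted p = 0.00573, or 0.0673 without PZT-2 replicate 1 and 0.0688 for its most abundant transcript alone). All 7 markers of pancreatic duct epithelium were listed, with levels in TPM (abundance per transcript length, scaled to the library). CDH1 lay at 3.03 and 3.90 TPM in PANC-1 and at 0 and 0.497 TPM in PZT-2. EPCAM lay at 8.24 TPM or less, and KRT7 far below KRT8, KRT18 and KRT19 in every library. The summed level of the 7 was 7291 to 7322 TPM in PANC-1 and 3827 to 3902 TPM in PZT-2. Most of it came from KRT8, KRT18 and KRT19, each lower in both PZT-2 libraries. SOX9 went the other way, at 73.6 and 66.6 TPM in PANC-1 and 84.4 and 81.1 TPM in PZT-2. None of 4 acinar and 4 endocrine markers was listed, of 5 fibroblast markers COL1A1 was listed alone (10.5 to 11.4 TPM in PANC-1, 2.86 to 3.61 TPM in PZT-2), and of 3 blood markers CD14 alone (at most 2.59 TPM). The part of this difference in keratins in the results below was not tested. Over the 32 genes the replicates differed by a median of 0.0646 (PANC-1) and 0.0962 (PZT-2) on the log2 scale, against 0.146 and 0.118 over all genes tested.

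The genes did not move as a block. In PZT-2, 4 of the 32 were higher and 10 were lower at an adjusted p of 0.05, and 18 did not pass. PDK4, SUCLG2, PDP2 and PDHB were higher, and IDH1, OGDH, FH, DLD, IDH3G, MPC2, MDH2, ACO1, CS and SDHA were lower. Together these are 43.75% of the genes, where 28.4% of all genes tested passed in either direction. The 4 higher genes make 12.5% of the 32 against 14.7% of all genes, and the 10 lower genes 31.25% against 13.7%. The replicates of the 32 genes lay closer together than those of all genes (above), which lets smaller changes pass. The part of this in the shares was not tested. The libraries of the lines did not overlap for 24 of the 32, 8 with PZT-2 above and 16 with PZT-2 below, where 66.3% of all genes were parted in this way (33.3% above, 32.9% below). The median log2 fold change was -0.11, against 0.00117 over all genes, and the values ran from -0.80 to 1.60. With an unadjusted p under 0.05 there were 17 genes, where 40.6% of all genes had one.

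The count of lower genes rested on having both PZT-2 libraries. It was 4 when PZT-2 replicate 1 was left out and 3 when PZT-2 replicate 2 was, fits in which the lone library was assumed to vary like the PANC-1 pair, and 13 and 10 without PANC-1 replicate 1 and 2. For none of the called genes did the lines overlap, so leaving out 1 library could hardly turn their direction. The other alternatives refitted the same libraries. With this limit, the direction of all 14 called genes stayed the same in each of 14 alternatives. PDHB, PDK4, SUCLG2, IDH1, OGDH and FH kept their call in all of them. Leaving out 1 library moved the log2 fold change by over 1.5 times, or turned it, for 0 of the 14 called genes and for 14 of the 18 others. The called genes were chosen by a test on these same libraries. A log2 fold change near 0 is moved by such a ratio more easily, so this contrast is no support for the calls. DESeq2 also called 4 higher and 9 lower, where it called 21.4% of all genes.

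**Figure D1:**
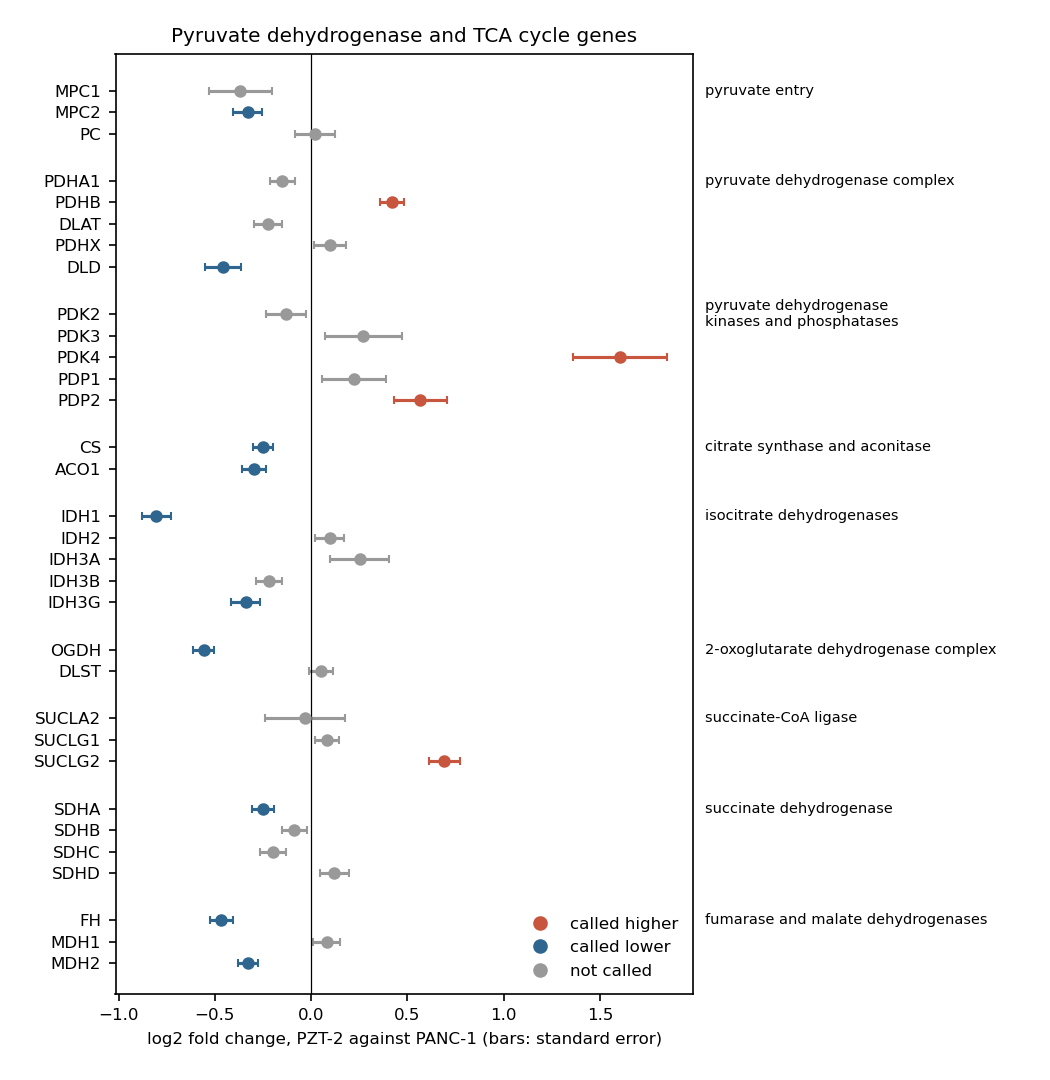
Log2 fold change of the 32 genes in PZT-2 against PANC-1 (points, n = 2 libraries each) with the standard error of the edgeR fit (bars), grouped by role. The 4 genes called higher are in red, the 10 called lower in blue, and most values lie between -0.5 and 0.5, with PDK4 (1.60) and IDH1 (-0.80) farthest out.

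The pyruvate carrier was represented by both subunits. MPC2 had 711 and 709 normalized counts (counts scaled to the mean library) in PANC-1 and 547 and 583 in PZT-2. Of the counts of this gene 97.3% were assigned to a transcript annotated as non-coding (below). The lines did not overlap, and the log2 fold change of MPC2 was -0.33 (SE 0.0745, adjusted p = 0.0195). Its call was lost in 4 of the alternatives, without either PZT-2 library (adjusted p = 0.124 and 0.0725), in DESeq2 (adjusted p = 0.0551) and with its most abundant transcript alone (adjusted p = 0.0629). MPC1, with which MPC2 forms the carrier, had 149 and 144 normalized counts in PANC-1 and 98.6 and 128 in PZT-2, also without overlap, but its log2 fold change of -0.37 did not pass (SE 0.165, adjusted p = 0.149) and was -0.19 or -0.57 when PZT-2 replicate 1 or 2, respectively, was left out. Pyruvate carboxylase (PC), which makes oxaloacetate from pyruvate and so refills the cycle, had a log2 fold change of 0.02 (SE 0.103, adjusted p = 0.916), and its libraries overlapped, with 269 and 286 in PANC-1 and 270 and 294 in PZT-2.

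The pyruvate dehydrogenase complex is built from E1 (a tetramer of alpha subunits from PDHA1 and beta subunits from PDHB), E2 (DLAT), E3 (DLD) and the E3-binding protein (PDHX). Of the E1 subunits, PDHB passed the test and PDHA1 did not. PDHB had 907 and 925 normalized counts in PANC-1 and 1231 and 1219 in PZT-2. Both PZT-2 libraries were higher, 1.34 times on average, a log2 fold change of 0.42 (SE 0.0610, adjusted p = 0.00416). PDHA1, on chromosome X, had 1107 and 1146 in PANC-1 and 995 and 1035 in PZT-2, which did not pass the test at a log2 value of -0.15 (SE 0.0637, adjusted p = 0.129). Per length, the level of PDHB over that of PDHA1 in TPM was 1.91 and 1.89 in PANC-1 and 2.89 and 2.75 in PZT-2, so the ratio also did not overlap between the lines.

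DLD, the lipoamide dehydrogenase that also serves the 2-oxoglutarate and branched-chain complexes and the glycine cleavage system, had 726 and 768 normalized counts in PANC-1 and 583 and 504 in PZT-2. It was lower in both PZT-2 libraries by a log2 fold change of -0.46 (SE 0.0929, adjusted p = 0.0131), and it was not called without PZT-2 replicate 2 (adjusted p = 0.0882) or with its most abundant transcript alone (adjusted p = 0.0643). DLAT, the acetyltransferase core, had 1431 and 1562 in PANC-1 and 1237 and 1324 in PZT-2. Its log2 fold change of -0.23 missed the threshold (SE 0.0727, adjusted p = 0.0611), and passed without PANC-1 replicate 1 (adjusted p = 0.0144) and with a minimum of 10 counts in all 4 libraries (adjusted p = 0.0412). PDHX, which anchors DLD to the core, had 531 and 578 in PANC-1 and 609 and 580 in PZT-2 (log2 fold change 0.10, SE 0.0823, adjusted p = 0.431).

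The largest change of all 32 genes was that of PDK4, the kinase isoform known to be induced by fasting and fatty acid oxidation. It had 27.0 and 28.9 normalized counts in PANC-1 and 96.6 and 74.2 in PZT-2. All 4 values were low, but the lines were far apart, 3.04 times on average, with a log2 fold change of 1.60 (SE 0.244, adjusted p = 0.00484). Over the alternatives this value lay between 0.99 and 1.78, the lowest on the log2(TPM + 1) scale, where the pseudocount is as large as the level in PANC-1. PDK4 was nonetheless a minor kinase transcript: it stood at 0.935 and 1.01 TPM in PANC-1 and 3.33 and 2.55 TPM in PZT-2.

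PDK2, the main kinase isoform by level in these cells, stood at 28.0 and 24.1 TPM in PANC-1 and 21.4 and 24.8 TPM in PZT-2. Its normalized counts overlapped between the lines (435 and 388, then 355 and 395) and its log2 fold change of -0.13 did not pass (SE 0.104, adjusted p = 0.398). PDK3 had 79.9 and 75.0 normalized counts in PANC-1 and 107 and 80.1 in PZT-2 (log2 fold change 0.27, SE 0.200, adjusted p = 0.365), and the value was 0.05 or 0.46 when PZT-2 replicate 1 or 2, respectively, was left out. The fourth kinase, PDK1, which belongs to the list of further genes below, had 111 and 113 normalized counts in PANC-1 and 229 and 269 in PZT-2, and was higher by a log2 fold change of 1.15 (SE 0.135, adjusted p = 0.00196). Of the summed TPM of the 4 kinases, PDK2 held 78.8 and 77.1% in PANC-1 and 58.4 and 64.4% in PZT-2, PDK1 held 8.82 and 11.1% and then 18.8 and 20.0%, and PDK4 held 2.64 and 3.22% and then 9.09 and 6.62%. The sum itself was 35.5 and 31.2 TPM in PANC-1 and 36.6 and 38.5 TPM in PZT-2.

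The phosphatases oppose the kinases, and one of them was also higher. PDP2 had 190 and 244 normalized counts in PANC-1 and 313 and 333 in PZT-2. There was no overlap, and the log2 fold change was 0.57 (SE 0.138, adjusted p = 0.0251), but it was not called without PZT-2 replicate 1 or 2 (adjusted p = 0.0886 and 0.138), on either TPM scale (adjusted p = 0.0711 and 0.0763) or with its most abundant transcript alone (log2 fold change 0.01, adjusted p = 0.994). PDP1, the calcium-stimulated phosphatase, had 147 and 131 in PANC-1 and 141 and 183 in PZT-2, which did not pass the test at a log2 value of 0.22 (SE 0.168, adjusted p = 0.377) and lay at 0.40 or 0.02 when PZT-2 replicate 1 or 2, respectively, was left out. Of the 5 regulators, 2 were called higher, PDK4 and PDP2, which act in opposite directions on the complex, and 0 lower. Among all genes tested 14.7% were called higher and 13.7% lower.

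**Figure D2:**
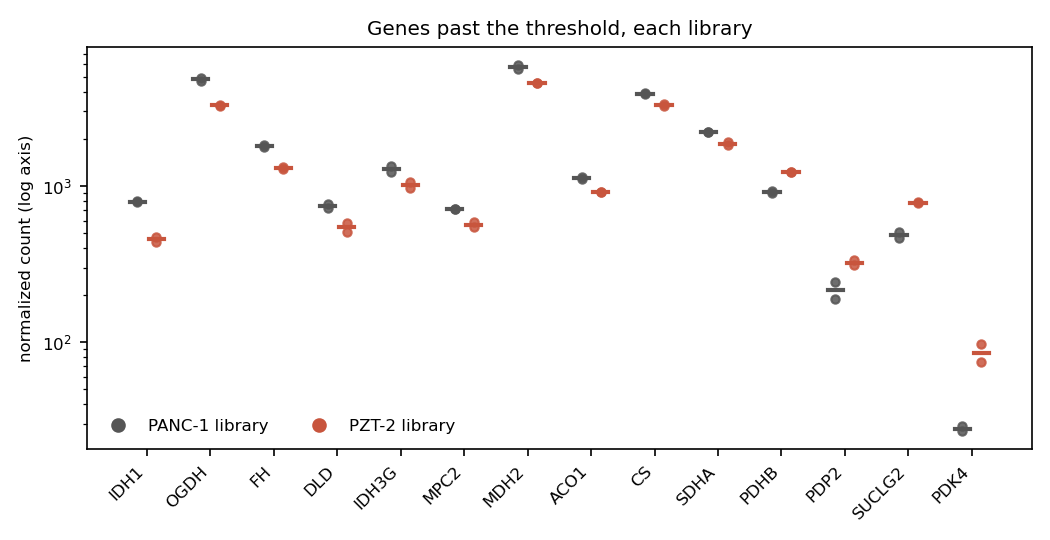
Normalized counts (log axis) of the 14 genes past the threshold in each of the 2 PANC-1 and 2 PZT-2 libraries (points), with the mean of each line (bars). In none of the 14 do the PANC-1 and PZT-2 libraries overlap, but these genes were chosen by a test on the same libraries. Of all genes tested 66.3% did not overlap either. PDK4 has the lowest counts, 27.0 to 96.6.

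Both genes of the first steps of the cycle were lower. CS, citrate synthase, had 3882 and 3926 normalized counts in PANC-1 and 3330 and 3229 in PZT-2. The difference was small and the replicates lay close together, with a log2 fold change of -0.25 (SE 0.0523, adjusted p = 0.0145). ACO1, the cytosolic aconitase that also acts as an iron-regulated RNA-binding protein, had 1136 and 1110 in PANC-1 and 918 and 910 in PZT-2, again without overlap, and a log2 fold change of -0.30 (SE 0.0620, adjusted p = 0.0147). With either PZT-2 library left out neither gene was called (adjusted p = 0.0887 and 0.138 for CS, 0.0877 and 0.111 for ACO1).

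Of the 5 isocitrate dehydrogenase genes 2 were called lower, IDH1 and IDH3G, and 0 higher, where 13.7% and 14.7% of all genes tested were. IDH1, the cytosolic and peroxisomal NADP enzyme, had 801 and 786 normalized counts in PANC-1 and 439 and 470 in PZT-2. This was the largest fall of the 32 genes, to 0.573 times on average, with a log2 fold change of -0.80 (SE 0.0761, adjusted p = 0.000994). IDH2, its mitochondrial NADP counterpart, had 1683 and 1502 in PANC-1 and 1754 and 1647 in PZT-2, with overlap, and a log2 fold change of 0.10 (SE 0.0769, adjusted p = 0.405). The ratio of IDH2 to IDH1 in TPM was 2.92 and 2.67 in PANC-1 and 5.63 and 4.92 in PZT-2.

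The NAD-dependent enzyme of the cycle itself is assembled from IDH3A, IDH3B and IDH3G. IDH3G, on chromosome X, had 1332 and 1237 normalized counts in PANC-1 and 967 and 1060 in PZT-2. It was lower in both PZT-2 libraries by a log2 fold change of -0.34 (SE 0.0757, adjusted p = 0.0183), and was not called without PZT-2 replicate 1 (adjusted p = 0.127) or 2 (adjusted p = 0.0615), or with its most abundant transcript alone (adjusted p = 0.0732). IDH3B had 1601 and 1640 in PANC-1 and 1327 and 1459 in PZT-2 and missed the threshold with a log2 fold change of -0.22 (SE 0.0691, adjusted p = 0.0576). It passed with a minimum of 10 counts in all 4 libraries (adjusted p = 0.0390) and on both TPM scales (adjusted p = 0.0428 and 0.0455). Without PANC-1 replicate 1 the log2 fold change of IDH3B was -0.24, and over all alternatives it lay between -0.29 and -0.05. Its most abundant transcript, with 79.8% of the counts, had a log2 fold change of -0.06 in the edgeR test of separate transcripts (adjusted p = 0.829). IDH3A, the catalytic subunit, had 611 and 847 in PANC-1, a wide pair, and 816 and 927 in PZT-2, which did not pass the test at a log2 value of 0.25 (SE 0.153, adjusted p = 0.274). Without PANC-1 replicate 2 it became 0.51 and passed (adjusted p = 0.00756), and without PANC-1 replicate 1 it was 0.04.

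OGDH, the E1 subunit of the 2-oxoglutarate dehydrogenase complex, had 4929 and 4722 normalized counts in PANC-1 and 3322 and 3233 in PZT-2. The lines stood well apart, with PZT-2 at 0.679 times PANC-1, a log2 fold change of -0.56 (SE 0.0539, adjusted p = 0.00107). DLST, the E2 core of the same complex, had 1364 and 1344 in PANC-1 and 1440 and 1362 in PZT-2, overlapped, and had a log2 fold change of 0.05 (SE 0.0621, adjusted p = 0.603). The ratio of OGDH to DLST in TPM was 2.31 and 2.25 in PANC-1 and 1.45 and 1.51 in PZT-2. With DLD, the E3 that both complexes share, 2 of the 3 subunits of this complex were called lower, where 13.7% of all genes tested were.

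Succinate-CoA ligase pairs SUCLG1 with a beta subunit that sets its nucleotide, SUCLG2 for GTP or SUCLA2 for ATP. SUCLG2 had 507 and 462 normalized counts in PANC-1 and 785 and 777 in PZT-2. It was higher in both PZT-2 libraries, 1.61 times on average, with a log2 fold change of 0.69 (SE 0.0796, adjusted p = 0.00188). SUCLG1 had 1304 and 1342 in PANC-1 and 1366 and 1436 in PZT-2 (log2 fold change 0.08, SE 0.0621, adjusted p = 0.377). SUCLA2 had 116 and 177 in PANC-1 and 144 and 145 in PZT-2, and its log2 fold change of -0.03 had a standard error of 0.208 (adjusted p = 0.934). The ratio of SUCLG2 to SUCLG1 in TPM went from 0.236 and 0.209 in PANC-1 to 0.348 and 0.323 in PZT-2.

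Succinate dehydrogenase, which is also complex II of the respiratory chain, has the catalytic subunits SDHA (flavoprotein) and SDHB (iron-sulfur protein) and the membrane anchors SDHC and SDHD. SDHA had 2226 and 2220 normalized counts in PANC-1 and 1907 and 1828 in PZT-2. It was lower in both PZT-2 libraries with a log2 fold change of -0.25 (SE 0.0574, adjusted p = 0.0201). The call was lost without PZT-2 replicate 1 or 2 (adjusted p = 0.0945 and 0.171) and with its most abundant transcript alone (adjusted p = 0.105). The value is uncertain: 7.16% of its counts came from a transcript matched by accession alone, without which the log2 fold change was -0.20 (adjusted p = 0.0767), and near-identical copies of the gene can share its reads. Of these copies, SDHAP1 had 91 and 121 counts in PANC-1 and 176 and 173 in PZT-2, SDHAP4 had 156 and 207 and then 247 and 257, and SDHAP3 had 46 and 67 and then 52 and 47, all of them before normalization.

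The other 3 subunits did not pass. SDHB had 2750 and 2767 normalized counts in PANC-1 and 2463 and 2729 in PZT-2 (log2 fold change -0.09, SE 0.0669, adjusted p = 0.383). SDHC had 2142 and 2245 and then 1824 and 2000, a log2 fold change of -0.20 (SE 0.0685, adjusted p = 0.0746), and passed without PANC-1 replicate 1 (adjusted p = 0.0321). SDHD had 1597 and 1647 and then 1661 and 1865, a log2 fold change of 0.12 (SE 0.0740, adjusted p = 0.280), the one subunit with both PZT-2 libraries above PANC-1.

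FH, fumarase, a tumour suppressor in hereditary renal cancer, had 1781 and 1827 normalized counts in PANC-1 and 1289 and 1322 in PZT-2. The replicates were tight and the lines apart, with a log2 fold change of -0.47 (SE 0.0587, adjusted p = 0.00251). MDH2, the mitochondrial malate dehydrogenase that closes the cycle, had 5922 and 5579 in PANC-1 and 4566 and 4587 in PZT-2 (log2 fold change -0.33, SE 0.0536, adjusted p = 0.00615), and was not called without PZT-2 replicate 1 or 2 (adjusted p = 0.0633 and 0.0657). MDH1, its cytosolic counterpart in the malate-aspartate shuttle, had 2478 and 2548 in PANC-1 and 2802 and 2513 in PZT-2, overlapped, and had a log2 fold change of 0.08 (SE 0.0696, adjusted p = 0.442). The ratio of MDH2 to MDH1 in TPM was 1.62 and 1.50 in PANC-1 and 1.12 and 1.24 in PZT-2.

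On the per-length scale of TPM, the 32 genes spanned from 0.971 TPM (PDK4) to 342 TPM (MDH2) on average in PANC-1. MDH2, SDHB, MDH1, CS and SDHD stood highest there, at 342 ± 11.6, 338 ± 3.76, 219 ± 3.98, 169 ± 1.96 and 161 ± 4.46 TPM (SD, n = 2). MDH2 and SDHB did not differ beyond that spread. In PZT-2 the order began with SDHB at 316 ± 22.7 and MDH2 at 268 ± 0.481 TPM (SD, n = 2). At the low end in PANC-1 were PDK4, PDK3, PDP2, PDP1 and PC, from 0.971 to 8.88 TPM, and SUCLA2 lay beside PC at 8.92 ± 2.67 TPM (SD, n = 2). Within the pyruvate dehydrogenase complex PDHB stood highest in both lines, at 81.5 ± 1.51 TPM in PANC-1 and 108 ± 0.843 TPM in PZT-2 (SD, n = 2). Summed, the 32 genes made 2759 and 2772 TPM in PANC-1 and 2484 and 2538 TPM in PZT-2, without overlap. In bulk libraries such as these, fewer cells with a transcript and less of it per cell cannot be told apart.

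**Figure D3:**
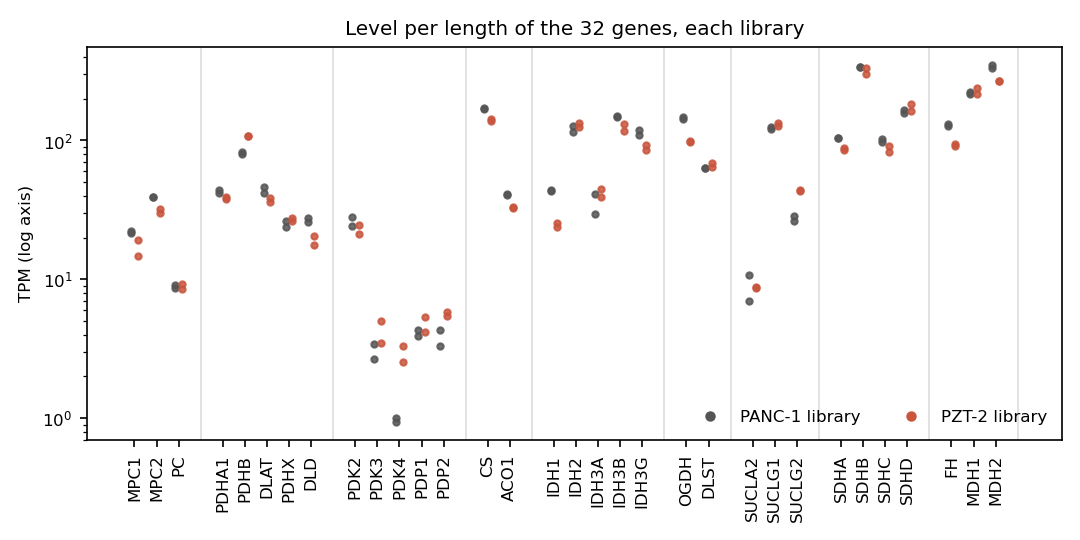
Level of the 32 genes in TPM (log axis) in each of the 2 PANC-1 and 2 PZT-2 libraries (points), grouped by role and parted by vertical lines. Kinases and phosphatases other than PDK2 lie lowest, from 0.935 TPM, and MDH2 and SDHB highest, at 342 and 338 TPM on average in PANC-1.

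Several of the changes lay among neighbouring genes that moved the same way. Chromosome 3 as a whole was higher in PZT-2: its 833 tested genes had a median log2 fold change of 0.43 and 48.4% of them were called higher. PDHB (0.42) and SUCLG2 (0.69), the only members on it, are 2 of the 4 higher genes. The 20 tested genes around PDHB, 10 on either side, had a median of 0.29, with 8 of them above PDHB, and the 20 around SUCLG2 had a median of 0.39, with 3 above it. Relative to these medians PDHB stood 0.13 and SUCLG2 0.30 higher.

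Chromosome X was lower, with a median of -0.29 over 471 genes and 36.3% called lower. It holds IDH3G (-0.34), PDHA1 (-0.15) and PDK3 (0.27). Around IDH3G, 14 of 20 neighbours were called lower, with a median of -0.51, below the value of IDH3G itself. Around PDHA1 and PDK3 the neighbours' medians were 0.02 and -0.00930. FH lay among lower genes too, with 9 of its 20 neighbours on chromosome 1 called lower and a median of -0.32, whereas the chromosome's own median was -0.0131.

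Of the 20 neighbours of PDK4, 1 had a larger log2 fold change, and their median was 0.07. PDP2 was exceeded by 2 of 20 (median 0.04). OGDH and DLD each lay below 18 of 20 neighbours, whose medians were -0.13 and 0.15, and IDH1 below 17 of 20, with a median of -0.11. MDH2 lay below 16 of 20 (median 0.15) and ACO1 below 17 of 20 (median 0.02). CS also lay below 17 of 20, at a distance of -0.20 from their median, and MPC2 and SDHA lay -0.14 and -0.0447 from theirs. OGDH, DLD, MDH2 and PDK4 all lie on chromosome 7, whose median was -0.0926. The part of the differences along whole chromosomes in the values of single members was not tested.

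**Figure D4:**
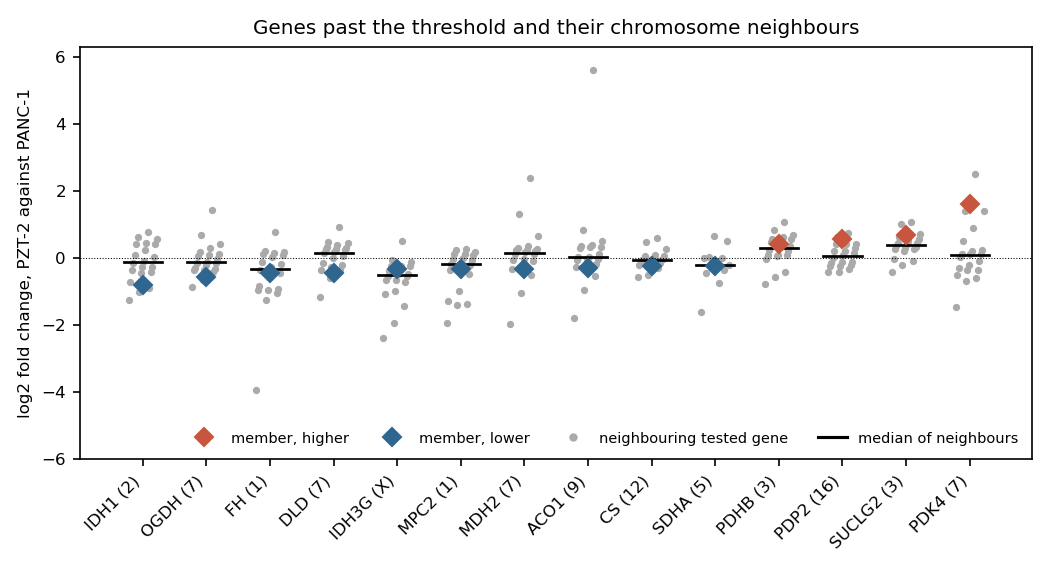
Log2 fold change of each of the 14 called genes (diamonds, chromosome in brackets) beside the up to 20 nearest tested genes on its chromosome (grey points) and their median (black bar). The distance from the neighbours' median is smallest in size for SDHA (-0.0447) and largest for PDK4 (1.53), with PDHB at 0.13, IDH3G at 0.17, FH at -0.14 and SUCLG2 at 0.30.

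By transcript, the table held 81 RefSeq transcripts of the 32 genes, 80 of which could be tested, and 9 genes had a single one. None passed in edgeR when tested as separate transcripts, where 0.148% of all 30403 transcripts passed. The lowest adjusted p was 0.0604, 17 had an unadjusted p under 0.05, and DESeq2 called 16, against 14.5% of all transcripts. In 10 genes 2 or more transcripts held at least 10% of the counts each, and how kallisto divided the reads between them enters these shares.

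The shares of the 2 lines lay close together in IDH3G, where NM_004135 held 81.4% of the counts in PANC-1 and 81.7% in PZT-2 and NM_174869 the rest, in PDK2, where NM_002611 held 69.8% and 69.3%, NM_001199898 15.8% and 17.5% and NM_001199900 14.3% and 13.3%, and in OGDH, where NM_002541 held 81.5% and 78.6% and NM_001165036 17.7% and 20.1%.

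In the phosphatases the replicates of a line disagreed, so no share is given by line. NM_020786 of PDP2 had 50.6 and 212 normalized counts in PANC-1 and 144 and 122 in PZT-2. NM_001329931 of PDP2 had 0 and 33.6 and then 52.2 and 210, and NM_001329929 had 139 and 0 and then 45.2 and 0. In PDP1, NM_018444 had 60.7 and 79.0 in PANC-1 and 100 and 145 in PZT-2, NM_001161779 had 75.4 and 14.5 and then 0 and 37.5, and NM_001161780 had 11.2 and 38.1 and then 40.2 and 0.

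In IDH2, NM_002168 held 81.2% of the counts in PANC-1 and 76.6% in PZT-2, and the minor transcript NM_001289910 held 18.2% and 22.1%. In IDH3B, NM_006899 held 75.7% and 84.5% and NM_001330763 14.4% and 10.5%. PDHX had 72.3% and 63.9% in NM_003477 and 25.9% and 32.8% in NM_001135024, the latter with 87.7 and 191 normalized counts in the PANC-1 replicates. In PDK3, NM_005391 had 41.6 and 30.0 normalized counts in PANC-1 and 61.3 and 41.4 in PZT-2, and NM_001142386 had 38.2 and 45.4 and then 45.2 and 38.4. MDH1 divided its counts among NM_001199111, NM_001316374 and NM_005917, the last 2 with identical values in every library (28.4% of the gene in PANC-1 and 31.3% in PZT-2 each). Nearly all counts of MPC2, 97.3%, were assigned to NR_026550, annotated as non-coding, and its coding transcripts NM_001143674 and NM_015415 held 1.57% and 1.13%.

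Genes around the pathway were examined as 7 lists, of which 93 of 100 genes could be tested. Of these, 14 were called higher and 14 lower, with a median log2 fold change of -0.04. Each direction makes a share close to that of all genes (14.7% and 13.7%). Of 9 further genes of the complex and the cycle, 2 were higher, PDK1 (above) and DHTKD1 (0.32, adjusted p = 0.0301), an OGDH-like enzyme of lysine breakdown. PDPR, the regulatory subunit of PDP1, was lower (log2 fold change -0.29, adjusted p = 0.0194).

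Lipoate is the swinging arm of DLAT and DLST, and iron-sulfur clusters serve SDHB and the lipoate synthase LIAS. Of 14 such supply genes 1 was higher, LIAS, from 58.5 and 61.5 normalized counts to 93.6 and 115 (log2 fold change 0.79, adjusted p = 0.0226). Another 2 were lower, IBA57 (-0.50, adjusted p = 0.0249), a late assembly factor of mitochondrial clusters, and MECR (-0.30, adjusted p = 0.0393), of mitochondrial fatty acid synthesis. The direction of MECR was not stable, as its log2 fold change ran from -0.44 to 8.22 over the alternatives. Among 16 genes by which carbon enters the cycle from other sources, ME2, the mitochondrial malic enzyme, was higher (0.35, adjusted p = 0.0392), and its cytosolic relative ME1 (-0.28, adjusted p = 0.0264) and the aminotransferase GOT2 (-0.24, adjusted p = 0.0266) were lower.

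Of 9 carriers, 3 were higher and 3 lower. SLC25A1, which exports citrate from mitochondria, had 1856 and 1867 normalized counts in PANC-1 and 1174 and 1130 in PZT-2, and was lower (log2 fold change -0.69, adjusted p = 0.000738). The aspartate-glutamate carriers of the malate-aspartate shuttle moved in opposite directions, SLC25A12 (0.51, adjusted p = 0.0115) up and SLC25A13 (-0.29, adjusted p = 0.0214) down. SLC16A1, a plasma membrane carrier of lactate and pyruvate, was higher (0.40, adjusted p = 0.0103). ACLY, which splits the exported citrate into acetyl-CoA in the cytosol, was lower (-0.20, adjusted p = 0.0350), as was ACSS1, the mitochondrial acetyl-CoA synthetase (-0.41, adjusted p = 0.0114), and PKM, the pyruvate kinase, was higher (0.27, adjusted p = 0.00307), 1 higher and 2 lower among 9 genes of other fates of these metabolites. Of 8 genes of related oxo-acid dehydrogenases, GLDC of glycine cleavage was the one called, higher by 0.63 (adjusted p = 0.0186).

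Genes of mitochondrial content gave no common direction. Of 28 tested, 5 were higher and 3 lower, with a median of -0.05. PPARGC1B, a coactivator of mitochondrial genes, was higher by 1.23 (adjusted p = 0.0229), though its PANC-1 replicates lay far apart at 172 and 82.2 normalized counts beside 299 and 288 in PZT-2. POLG, the mitochondrial DNA polymerase, was higher by 0.48 (adjusted p = 0.00272) and HSPD1, a chaperonin, by 0.37 (adjusted p = 0.0120). TIMM44, of the import motor, was lower (log2 fold change -0.35, adjusted p = 0.0320). Over the 7 lists, leaving out PZT-2 replicate 1 left 4 higher and 1 lower gene, and leaving out PZT-2 replicate 2 left 4 and 3.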

How the data were processed

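Reads were trimmed by the authors (Trim Galore 0.4.1), who estimated abundance per RefSeq transcript with kallisto 0.43.0 and exported it with sleuth 0.29.0 for 2 biological replicates of each line. The submitters' processing notes name hg19, and the release of the index is not given in the sources used here. The authors deposited estimated counts and TPM, a signal rescaled per library. Columns of sleuth's Wald test hold the authors' own comparison and were not used.

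The estimated counts carried 1 factor per library (1.16 and 0.935 for PANC-1, 1.03 and 1.01 for PZT-2), undone here, after which 49.0 to 49.8% of low values of single-transcript genes were whole within 0.01, against 0.635 to 2.71% as deposited. Counts were rounded and summed per gene by the table's symbol, with 3925 of 4028 transcripts without one matched by accession to RefSeq and 103 (0.0466% of counts) left out. Genes that reached 5 counts in 2 or more libraries were tested with edgeR 4.0.16 in R 4.3.3 (TMM factors, quasi-likelihood test, Benjamini-Hochberg over all genes, threshold 0.05), checked on simulated counts. SE is the log2 fold change over the root of F. With 2 libraries against 2 the smallest p of an exact permutation test is 0.333, so none was used. No label says that libraries came from separate cultures, and p-values measure the spread between libraries only. Depth limits precision most for genes of low counts, such as PDK4.

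All members are named, as are H2AFZ, H2AFV, of each further list up to 4 called genes with the largest change, and transcripts with at least 10% of their gene. MPC2's transcripts and SDHA's copies were added after their values were seen. A result for 1 gene of the further lists is not reported here. Members, lists and markers were chosen with earlier results of these data known. Chromosomes and neighbours follow RefSeq on GRCh38.p14. Alternatives were DESeq2 1.42.0, limma-trend (limma 3.58.1) on log2(TPM + 1) and log2(TPM + 0.1), RLE factors, other filters, the factor kept, symbols only, the most abundant transcript, the replicate number as a block, and each library left out.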

Additional observations from a re-analysis of the deposited data

How the results depend on the processing

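The replicate numbers did not pair the libraries (the deviations of same-numbered libraries from their group means correlated at r = -0.0237 over 15100 genes). With the number as a replicate block the members gave the same 4 higher and 10 lower calls, the median log2 fold change over members was -0.11, and the further lists gave 13 higher and 9 instead of 14 lower genes. With the most abundant transcript alone, 6 members were called lower, and 3 higher and 2 lower genes of the further lists. On log2(TPM + 0.1) the further lists held 9 higher genes. With each library left out in turn, members called higher ranged from 3 to 5 and lower from 3 to 13, genes of the further lists from 4 to 15 higher and from 1 to 19 lower, and the median over members from -0.17 to -0.0402. The low counts all came from leaving out a PZT-2 library.

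Directions turned only for genes that were not called: with the most abundant transcript alone for PC (-0.0134), PDHX (-0.0987), DLST (-0.00813) and MDH1 (-0.15), on log2(TPM + 0.1) for SUCLA2 (0.000698), and with a library left out for PC (range -0.0433 to 0.0794, below 0 without PANC-1 replicate 1, at -0.0272, or PZT-2 replicate 2), SUCLA2 (-0.295 to 0.312, above 0 without PANC-1 replicate 2) and MDH1 (-0.000313 without PZT-2 replicate 1, and up to 0.157). Of the 14 called members, 6 kept their call in each of 14 alternatives, and 4 of the 18 others passed in at least 1. The cause of these changes was not tested. Fewer libraries enter the fits that leave one out. For the called members the lines did not overlap, so leaving out 1 library could hardly turn their direction.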
